A study of Homo sapiens with 4 samples.

Results

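The genes described here encode AP-1, a family of dimeric leucine zipper transcription factors. The 10 genes were taken by symbol from the GENCODE 44 annotation, of 20033 protein-coding genes in all: *FOS*, *FOSB*, *FOSL1*, *FOSL2*, *JUN*, *JUNB*, *JUND*, *BATF*, *BATF3* and *ATF3*. For each gene, every Flag-FLI1 peak within 3 kb of a transcription start site, in the gene body or within 100 kb of the gene was collected. This gave 115 of the 30819 control peaks and 122 of the 39654 IFN-γ peaks, with peaks in the overlapping neighbourhoods of *ATF3* and *BATF3* counted once. The cells were HK1, an established nasopharyngeal carcinoma line, and all of them overexpressed FLI1 with a Flag tag. Chromatin was precipitated with an antibody to Flag from cells given PBS (control) or interferon-γ (IFN-γ) for 24 h, with 1 ChIP library of each, and 1 input library of each that is not analysed here. The peaks therefore show where the overexpressed protein was bound, and none of these libraries came from cells without it. A pileup is the number of fragments over the summit of a peak, and the deposited fold enrichment sets it against the local background. The rank of a peak is its place among all peaks of its list by −log10 p. The IFN-γ library had the higher background, 1.54 against 1.06 fragments at the lowest, so its pileups were divided by 1.46 before ratios were taken (scaled ratio). The median backgrounds over all peaks were 2.48 and 1.36 fragments. A scale from these medians would be larger, giving lower ratios, and was not tried. A promoter peak lay within 3 kb of a start site, and a distal peak lay outside that distance of every annotated start. With 1 library of each treatment, no difference between treatments was tested, and every interval below covers counting error only. In a bulk precipitate, a strong site and a site bound in more cells cannot be told apart. The lists hold no expression values, so neither the level of any AP-1 mRNA nor the labelled cell type was checked.

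AP-1 proteins bind DNA as pairs. FOS-family proteins pair with JUN-family proteins, whereas BATF, BATF3 and ATF3 pair with JUN proteins and other leucine zipper factors, and the usual binding sequence is TGANTCA or the longer cyclic AMP response element TGACGTCA. *FOS*, *FOSB*, *JUN*, *JUNB* and *ATF3* are immediate-early genes, which are transcribed within minutes of a growth factor or stress signal. FLI1 belongs to the ETS family, whose members recognise a GGAA core, and ETS and AP-1 sites often lie side by side in regulatory DNA. In Ewing sarcoma the fusion of EWSR1 with FLI1 binds runs of GGAA repeats.

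The sequences of 10 peaks carry most of the results below. Each is 201 bases of the plus strand of GRCh38, centred on a summit, written 5′ to 3′, and none overlaps an annotated untranslated region. Capitals mark every GGAA core (TTCC when it lies on the minus strand), the 8-letter ETS motif (CCGGAAGT or CAGGAAGT), the AP-1 motif TGANTCA and the CArG box, which is bound by serum response factor. Other ETS sequences were not searched for and are not marked. The first group holds the promoter summits of *JUNB* (chr19:12790202-12790402), *FOSL1* (chr11:65899400-65899600) and *JUN* (chr1:58784540-58784740), which had the highest promoter pileups in the control library. *FOS* (chr14:75278475-75278675) was added after its CArG box had been seen.
JUNB promoter: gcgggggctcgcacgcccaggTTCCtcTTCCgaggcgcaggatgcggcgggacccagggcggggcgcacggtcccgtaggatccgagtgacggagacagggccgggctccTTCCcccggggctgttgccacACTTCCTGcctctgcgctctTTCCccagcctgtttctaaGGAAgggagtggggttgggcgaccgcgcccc
FOSL1 promoter: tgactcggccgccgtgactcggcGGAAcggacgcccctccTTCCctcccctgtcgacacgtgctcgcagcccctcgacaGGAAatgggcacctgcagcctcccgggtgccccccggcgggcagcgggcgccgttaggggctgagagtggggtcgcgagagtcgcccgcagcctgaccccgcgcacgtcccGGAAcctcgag
JUN promoter: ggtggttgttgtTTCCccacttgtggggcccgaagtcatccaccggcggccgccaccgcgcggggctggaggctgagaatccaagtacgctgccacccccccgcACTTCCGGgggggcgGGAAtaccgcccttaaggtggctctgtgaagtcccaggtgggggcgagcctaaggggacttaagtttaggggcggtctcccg
FOS promoter: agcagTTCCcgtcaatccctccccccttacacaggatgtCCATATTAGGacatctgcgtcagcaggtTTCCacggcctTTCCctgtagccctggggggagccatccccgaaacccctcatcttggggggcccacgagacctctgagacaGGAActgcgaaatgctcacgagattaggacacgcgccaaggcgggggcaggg

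The next group holds the distal peaks present in both libraries with the highest mean fold enrichment. They lie upstream of *FOSB* (chr19:45443584-45443784), upstream of *FOS* (chr14:75230691-75230891), upstream of *ATF3* (chr1:212514105-212514305) and downstream of *JUN* (chr1:58755606-58755806).
FOSB −24.3 kb: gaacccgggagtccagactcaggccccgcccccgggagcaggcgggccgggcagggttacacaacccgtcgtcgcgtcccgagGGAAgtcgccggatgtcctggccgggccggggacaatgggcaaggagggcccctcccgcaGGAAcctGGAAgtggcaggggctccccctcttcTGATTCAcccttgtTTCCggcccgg
FOS −48 kb: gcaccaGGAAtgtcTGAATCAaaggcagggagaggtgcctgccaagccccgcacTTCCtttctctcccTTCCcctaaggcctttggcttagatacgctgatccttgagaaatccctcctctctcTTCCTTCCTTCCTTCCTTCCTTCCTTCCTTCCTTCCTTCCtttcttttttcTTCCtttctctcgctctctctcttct
ATF3 −94.6 kb: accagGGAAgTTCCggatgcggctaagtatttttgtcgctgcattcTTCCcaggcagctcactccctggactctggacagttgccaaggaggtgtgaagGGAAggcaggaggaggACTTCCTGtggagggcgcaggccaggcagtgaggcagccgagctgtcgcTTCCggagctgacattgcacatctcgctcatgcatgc
JUN +28.3 kb: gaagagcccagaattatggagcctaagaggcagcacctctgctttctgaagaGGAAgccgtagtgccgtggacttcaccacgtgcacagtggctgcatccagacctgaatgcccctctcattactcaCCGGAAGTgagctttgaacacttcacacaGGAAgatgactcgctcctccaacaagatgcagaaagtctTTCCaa

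The last group was chosen after its values were seen. It holds the peak in intron 2 of *BATF* (chr14:75535882-75536082), which had the highest scaled ratio of IFN-γ to control, and the distal peak with the highest fold among those found in a single library, an IFN-γ peak upstream of *JUN* (chr1:58799670-58799870).
BATF intron 2: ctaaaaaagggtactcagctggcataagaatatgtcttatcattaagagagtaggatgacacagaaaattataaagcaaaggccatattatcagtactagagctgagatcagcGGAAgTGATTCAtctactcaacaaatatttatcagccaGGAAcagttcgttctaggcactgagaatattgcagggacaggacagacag
JUN −15.7 kb: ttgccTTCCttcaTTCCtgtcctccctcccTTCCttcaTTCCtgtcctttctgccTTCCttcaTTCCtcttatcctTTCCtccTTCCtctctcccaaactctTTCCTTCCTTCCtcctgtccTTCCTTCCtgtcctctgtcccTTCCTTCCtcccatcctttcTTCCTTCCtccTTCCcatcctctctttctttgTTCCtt

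All 10 AP-1 genes had a Flag-FLI1 peak at the promoter in both libraries. Among all protein-coding genes, 61.9% had one in the control library, 59.7% in IFN-γ-treated cells and 56.0% in both. The strength of these peaks was very uneven when coding genes were ordered by the −log10 p of their strongest promoter peak. *JUNB*, *JUN* and *FOSL1* stood among the strongest promoters of the genome, at 1.52%, 2.18% and 2.04% from the top of the 12407 coding genes with a promoter peak in the control library, and at 3.76%, 2.53% and 6.89% from the top of 11967 in IFN-γ-treated cells. *FOSL2* and *BATF* were near the middle, at 45.4% and 44.8% in control cells and 36.9% and 48.3% in IFN-γ-treated cells. *FOS* was at 63.0% and 62.6%, and *FOSB*, *BATF3* and *ATF3* were in the weakest part, between 76.6% and 84.9% in both libraries. *JUND* was at 40.4% and 63.1%.

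**Figure D1:**
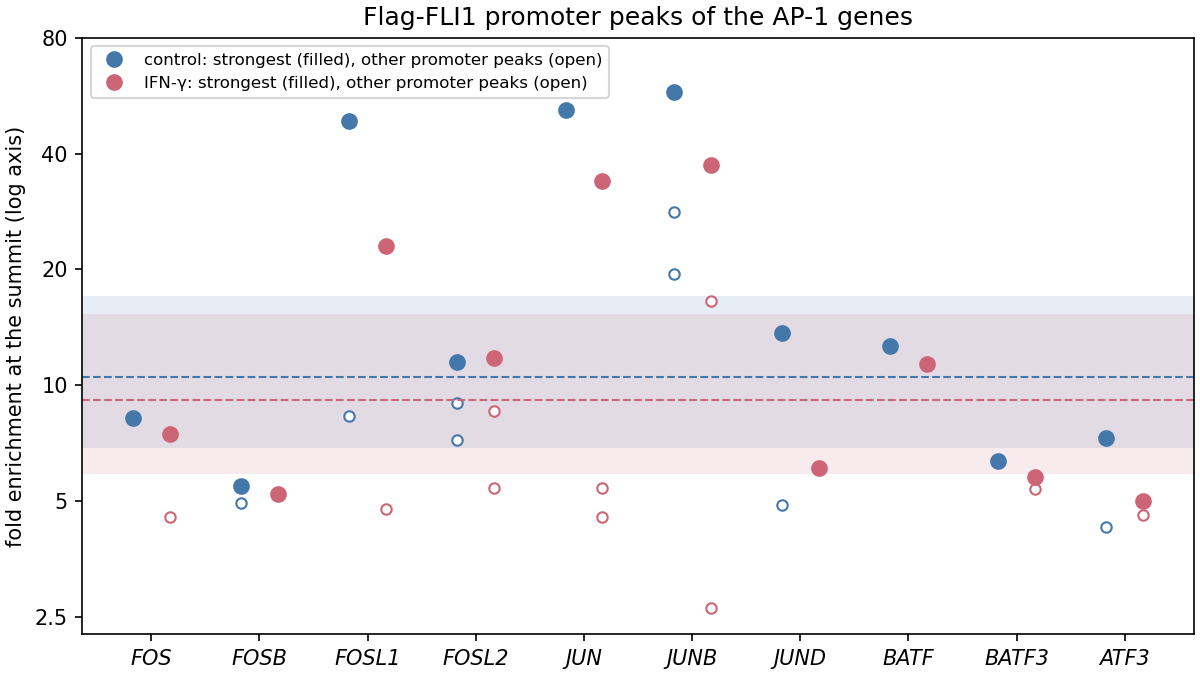
Fold enrichment at the summit (log axis) of every promoter peak of the 10 genes, in the control (blue) and IFN-γ (red) libraries; filled points are the peak with the highest −log10 p of a gene and open points its other promoter peaks. Dashed lines and bands are the median and the interquartile range of the strongest promoter peak over all protein-coding genes with one (medians 10.5 and 9.12); *JUNB*, *JUN* and *FOSL1* lie above the bands in both libraries.

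Among the FOS genes, *FOSL1* (chr11:65892049-65900573, minus strand) had by far the strongest promoter peak. It encodes FRA-1, a FOS-family protein common in carcinoma cells. Its summit lay 888 bp downstream of the start in intron 1 (chr11:65899037-65900777 in the control library), with a pileup of 117 fragments and a fold enrichment of 48.6, rank 216 of all control peaks. In the IFN-γ library the summit was 48 bp away, with 128 fragments and a fold of 23, rank 941. After scaling the pileup for depth, the IFN-γ value was 0.75 times the control value (95% interval 0.58 to 0.97), at the 33.3rd percentile of all promoter pairs. A second, weaker peak stood upstream of the *FOSL1* start, with folds of 8.32 and 4.75.

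*FOSL2* (chr2:28392448-28417317, plus strand), which encodes FRA-2, had 3 promoter peaks in each library. In the control library the strongest was 1620 bp upstream of the start, with a fold of 11.5 and 28 fragments. After IFN-γ the strongest was 2738 bp downstream of the start, next to an alternative start in intron 1, with a fold of 11.7 and 44 fragments. The order of the sites thus differed between the lists: the upstream pair had a scaled ratio of 0.69 (0.39 to 1.20) and the intronic pair 1.31 (0.78 to 2.28). Both intervals include 1.

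*FOS* (chr14:75278826-75282230, plus strand) and *FOSB* (chr19:45467995-45475179, plus strand), both immediate-early genes, had weak promoter peaks. At *FOS* the control peak (chr14:75277082-75279305) had its summit 253 bp upstream of the start, a pileup of 21 and a fold of 8.22. The matching IFN-γ peak (chr14:75278310-75278824) had its summit 220 bp upstream, with 25 fragments and a fold of 7.47, and a second IFN-γ peak of fold 4.54 lay 1125 bp upstream. The CArG box of the printed *FOS* sequence was within 100 bp of the summit in both libraries. Serum response factor binds this element together with ETS-family cofactors such as ELK1. At *FOSB* the control summits were 423 bp and 1139 bp downstream of the MANE Select start, which is the reference transcript's start, with folds of 5.46 and 4.93. The IFN-γ summit was 220 bp upstream with a fold of 5.22 and a CArG box within 100 bp. The *FOSB* summits of the 2 libraries were 643 bp apart, so their ratio of 0.87 (0.42 to 1.84) compares different positions.

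*JUNB* and *JUN* had the highest promoter folds of the family in both libraries. *JUNB* (chr19:12791486-12793315, plus strand), an AP-1 subunit that often restrains JUN activity, had 3 promoter peaks in the control library. The strongest (chr19:12788798-12790558) had its summit 1184 bp upstream of the start, a pileup of 124, a fold of 57.7 and rank 161. In the IFN-γ library the summit was 3 bp away, with 140 fragments, a fold of 37.3 and rank 493. Its scaled ratio was 0.78 (0.605 to 0.996). The peak 2508 bp downstream of the start, beyond the 3′ end of this short gene, had folds of 28.2 and 16.5 and a ratio of 0.63 (0.42 to 0.93). Of all coding starts, that of *HOOK2* was nearest to the control summit of this peak. The control peak over *JUNB* itself (fold 19.4, summit in exon 1) was not separate in IFN-γ-treated cells, where a single peak spanned chr19:12789650-12793004.

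*JUN* (chr1:58776845-58784048, minus strand), the founding JUN member, had its summit at exactly the same base in both libraries, 593 bp upstream of the start. The control peak (chr1:58782236-58785563) had 109 fragments and a fold of 52.0. The IFN-γ peak (chr1:58784286-58785739) had 177 fragments and a fold of 33.9. The scaled pileup was 1.12 times the control (0.87 to 1.43), whereas the ratio of the deposited folds was 0.65. The background at this summit was 1.11 fragments in control cells and 4.26 in IFN-γ-treated cells, and the direction of this pair therefore depended on the scale. *JUND* (chr19:18279694-18281622, minus strand), the JUN gene that is transcribed more constantly, had a peak of fold 13.6 with 27 fragments in control cells and of fold 6.10 with 31 fragments in IFN-γ-treated cells, with summits 171 bp apart and a ratio of 0.79 (0.46 to 1.37).

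The remaining members had modest promoter peaks. *BATF* (chr14:75522455-75546993, plus strand), best known in lymphocytes, had a peak in intron 1, 1498 bp downstream of the start, with 25 fragments and a fold of 12.7 in control cells and 28 fragments and a fold of 11.3 in IFN-γ-treated cells. *BATF3* (chr1:212686417-212699840, minus strand), required for a class of dendritic cells, had a peak in its intron 1 with 12 fragments and a fold of 6.33 in control cells and 16 fragments and a fold of 5.37 in IFN-γ-treated cells. A further *BATF3* peak in intron 2 near an alternative start (chr1:212687950-212688196, fold 5.78, 15 fragments) was in the IFN-γ list only. It lay over a run of GGAA repeats, with 11 GGAA cores within 100 bp of the summit. *ATF3* (chr1:212565334-212620777, plus strand), a stress-induced gene, had a peak over the MANE Select start with 14 fragments and a fold of 7.26 in control cells and 15 fragments and a fold of 4.60 in IFN-γ-treated cells, and a peak at its farthest upstream start with folds of 4.27 and 5.0.

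Flag-FLI1 peaks were numerous around these genes. A member had a median of 13 peaks within 100 kb in control cells and 13.5 in IFN-γ-treated cells, beside medians of 5 and 6 over all protein-coding genes. For 9 of the 10 genes the number was above that median in each library, and *BATF*, with 4 peaks in each, was the exception. *FOSB* had 17 and 22 peaks, *JUND* 17 and 13, *JUNB* 15 and 16, *FOSL1* 14 and 14, *FOSL2* 14 and 12, *ATF3* 12 and 15, *JUN* 11 and 14, *FOS* 10 and 10, and *BATF3* 7 and 11. Many of these peaks belonged to other genes: 43 in each library lay at the promoter of another coding gene. *JUNB*, *FOSL1*, *JUND* and *FOSB* have 14, 13, 9 and 8 coding neighbours within 100 kb. *FOS*, with 0 coding neighbours in that distance, and *FOSL2*, with 2, had peaks that were mostly distal or at non-coding transcripts.

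**Figure D2:**
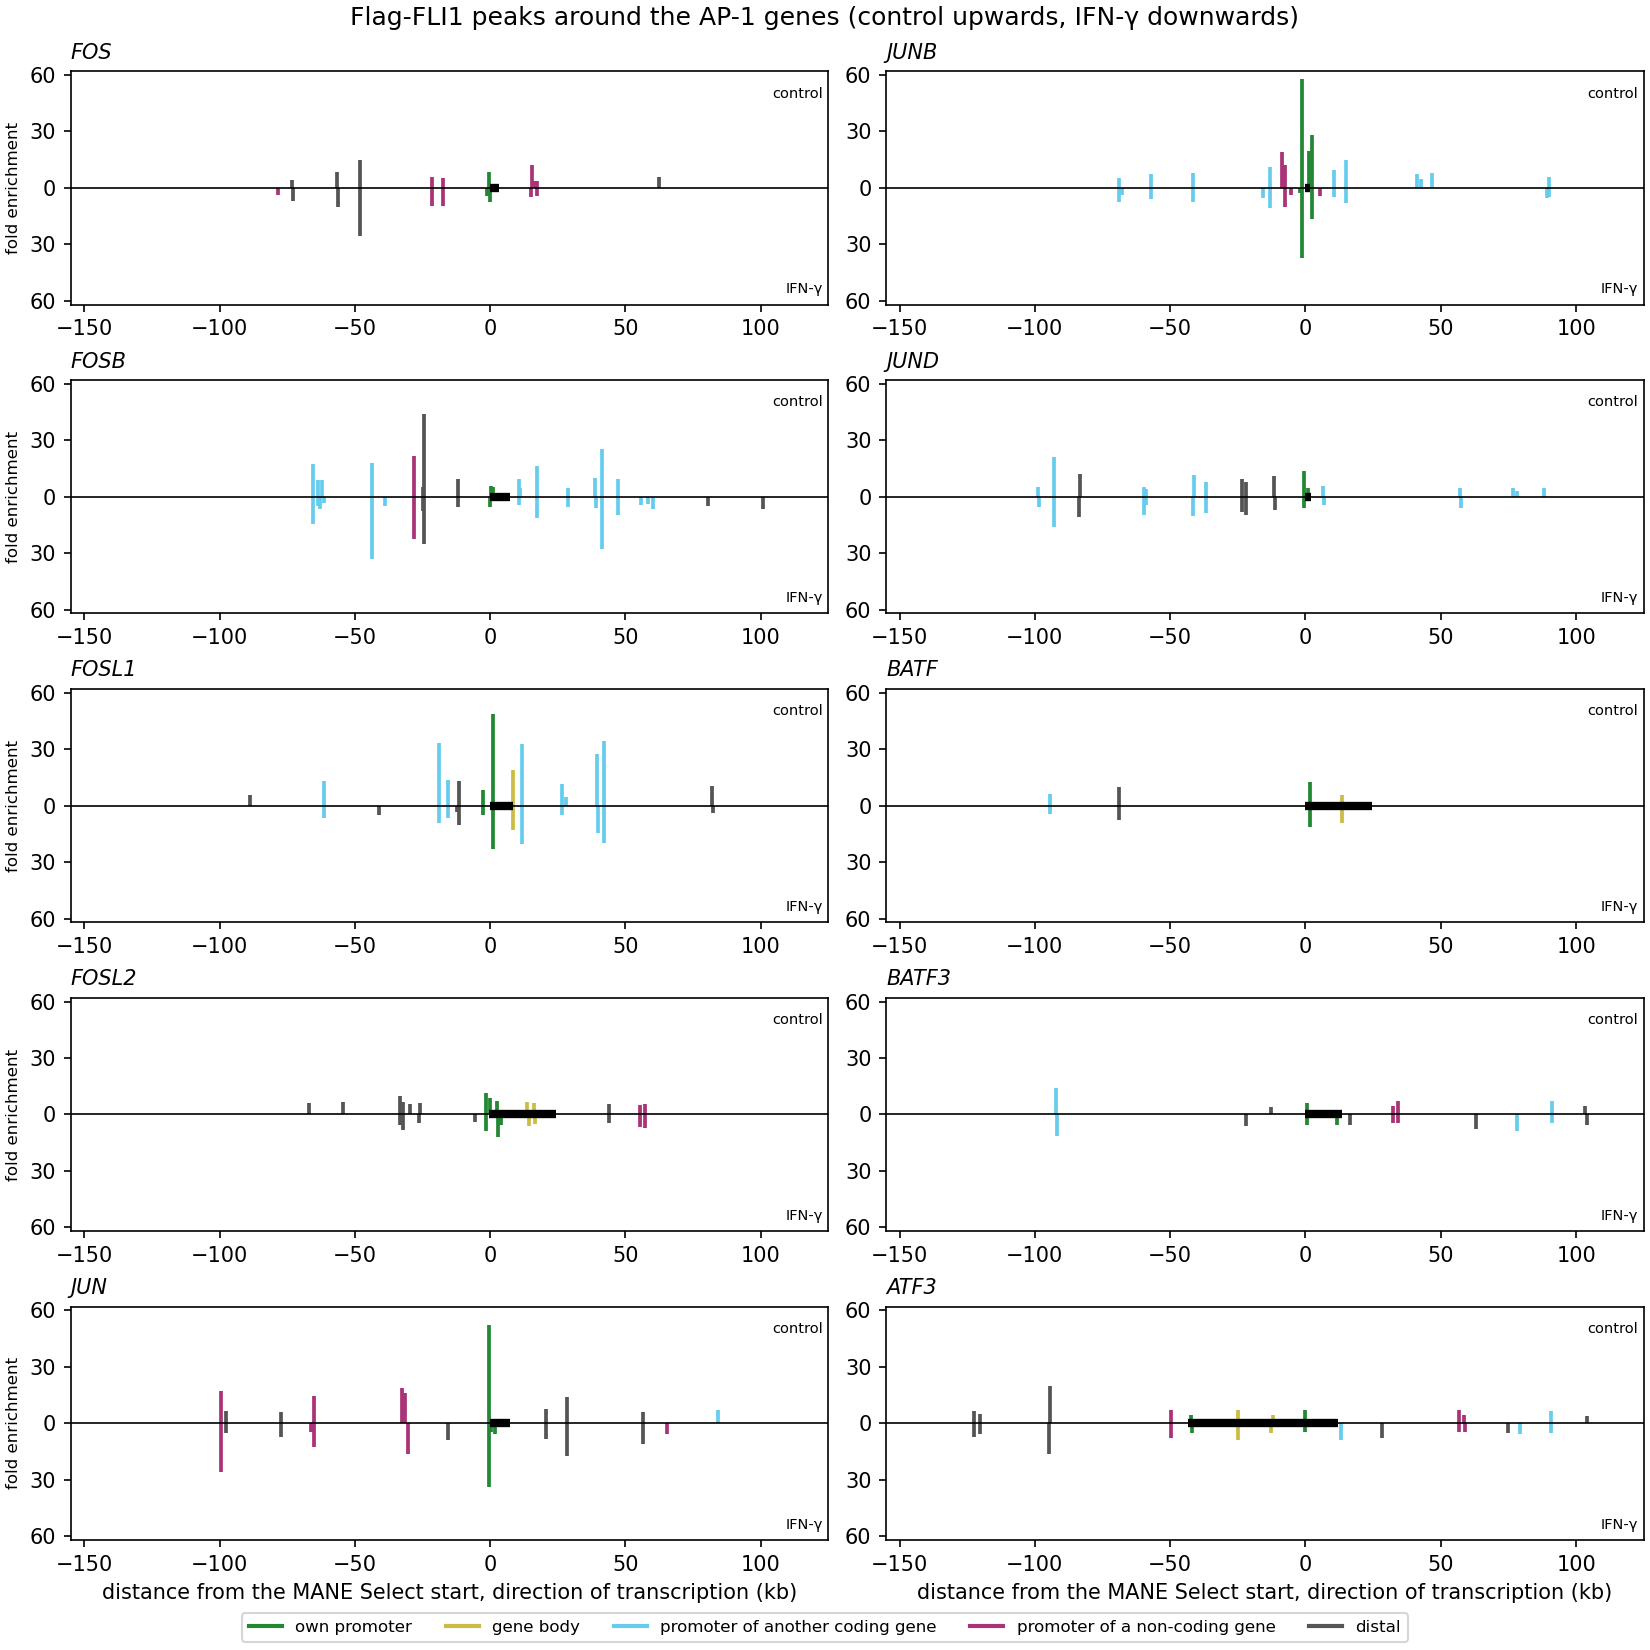
Peaks around the 10 genes by distance from the MANE Select start in the direction of transcription (x axis, kb); bar height is fold enrichment, upwards for the control and downwards for the IFN-γ library, bar colour is the class of the peak and the black bar is the gene. *JUN*, *JUNB* and *FOSL1* have tall promoter bars, whereas the tallest bar at *FOS* and *FOSB* lies 48 kb and 24.3 kb upstream in the control library.

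At *FOS*, *FOSB* and *ATF3*, whose promoter peaks were weak, the strongest peak in the neighbourhood lay elsewhere. *BATF3* and *JUND* also had stronger peaks than their own promoter peaks, at the promoters of other coding genes. These were nearest to *TATDN3* (folds of 14.3 and 11.3) and *GDF15* (21.2 and 16.1). The peak 24.3 kb upstream of *FOSB* (chr19:45443459-45444430), between *ERCC1* and *FOSB*, had 112 fragments, a fold of 43.9 and rank 275 in the control library, and 159 fragments, a fold of 25.4 and rank 559 in IFN-γ-treated cells. Its scaled ratio was 0.98 (0.76 to 1.25), and an AP-1 motif was within 100 bp of both summits. The nearest coding start belongs to *ERCC1*, a DNA repair gene, and is 7041 bp from the control summit. A peak at the *ERCC1* start itself, 43.5 kb upstream of *FOSB*, had 89 fragments and a fold of 17.9 in control cells and 219 fragments and a fold of 33.0 in IFN-γ-treated cells, with a ratio of 1.69 (1.32 to 2.19) and both an AP-1 and an 8-letter ETS motif.

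The distal peak 48 kb upstream of *FOS* (chr14:75230189-75231090 in the control library) had 34 fragments and a fold of 15.0 in the control library. It had 93 fragments and a fold of 25.4 in IFN-γ-treated cells, and its scaled ratio was 1.88 (1.26 to 2.87), at the 84.1st percentile of all distal pairs. The printed sequence shows an unbroken run of GGAA repeats beginning 24 bp from the control summit, and the window held 14 GGAA cores. A second repeat peak 17.5 kb upstream of *FOS* had folds of 5.42 and 9.52 and a ratio of 1.5 (0.71 to 3.39). A peak 21.4 kb upstream had folds of 5.54 and 9.60 and a ratio of 1.81 (0.88 to 4.02). Both lay in the promoter windows of non-coding genes and were counted as promoter pairs, not distal ones. In the other direction, a peak 15.3 kb downstream of the *FOS* start, at a non-coding transcript, had 27 fragments in the control and 19 in IFN-γ-treated cells and a ratio of 0.48 (0.25 to 0.90). The interval of the pair 48 kb upstream lay above 1 and that of the downstream pair below 1.

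At *JUN* the distal pair with the highest folds lay downstream. This peak, 28.3 kb from the start (chr1:58754915-58755933), had 47 and 108 fragments, folds of 14 and 17.3 and a ratio of 1.58 (1.11 to 2.27), with the motif CCGGAAGT 27 bp from the control summit. The pair was at the 71.5th percentile of all distal pairs, whose median ratio of 1.24 lies within its interval. A peak 99.4 kb upstream (chr1:58883159-58883989), in the promoter window of the non-coding gene *LINC02777*, had 68 and 134 fragments, folds of 17.2 and 25.7 and a ratio of 1.35 (1.00 to 1.84), with an AP-1 motif. The IFN-γ peak 15.7 kb upstream had a fold of 8.62 and 29 fragments, no overlapping control peak, and 19 GGAA cores in its window, without a run of 4 adjoining units. The *ATF3* peak 94.6 kb upstream of the MANE Select start had 45 and 68 fragments, folds of 19.7 and 16.5 and a ratio of 1.04 (0.70 to 1.55). In intron 2 of *BATF* a peak (chr14:75535889-75536316) had 11 fragments in the control and 35 in IFN-γ-treated cells, folds of 5.84 and 9.14, and a ratio of 2.19 (1.08 to 4.77), with an AP-1 motif 18 bp from the control summit. That *BATF* pair was at the 91.2nd percentile of all distal pairs, and its interval also includes their median of 1.24.

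Strong peaks also stood at the starts of neighbouring genes. Next to *FOSL1*, the peak at the start of *FIBP* had 109 and 129 fragments and folds of 32.9 and 20.6, and that of *DRAP1*, which encodes a transcriptional repressor, had 76 and 57 fragments and a scaled ratio of 0.52 (0.36 to 0.74). Next to *FOSB*, a peak in intron 1 of *VASP*, which encodes an actin regulator, had 63 and 136 fragments and a ratio of 1.48 (1.09 to 2.03). In the neighbourhood of *JUND*, the peak at the start of *GDF15*, a stress-induced cytokine gene, had 49 and 78 fragments, a ratio of 1.09 (0.76 to 1.60) and both an AP-1 and an 8-letter ETS motif. These pairs moved in either direction or had intervals that include 1.

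Most of the peaks around the AP-1 genes were in both lists. Of 115 control peaks, 97 (84.3%, exact interval 76.4% to 90.5%) had an IFN-γ peak over at least 1 of their bases, beside 77.5% of all control peaks. Of 122 IFN-γ peaks, 99 (81.1%, 73.1% to 87.7%) overlapped a control peak, beside 61.0% of all IFN-γ peaks. For distal IFN-γ peaks the values were 30 of 39 (76.9%, 60.7% to 88.9%) and 47.0% over all, and for promoter peaks 69 of 83 (83.1%, 73.3% to 90.5%) and 76.9%. The 18 control peaks and 23 IFN-γ peaks found in 1 library were weak: their folds reached 8.13 and 8.99, whereas the strongest peaks of the neighbourhoods reached 57.7 and 37.3.

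Scaled pileups could be compared at 93 pairs. The scaled ratio of IFN-γ to control had a median of 0.89 over the 63 promoter pairs, beside 0.89 over all 13571 promoter pairs. At the 14 pairs of the genes' own promoters the median was 0.80, 11 of the 14 were below 1, and 1 was at least 1.5 times lower and 0 at least 1.5 times higher, beside 22.2% and 10.6% of all promoter pairs. The intervals of 3 of these, 2 at *JUNB* and 1 at *FOSL1*, lay below 1, beside 11.6% of all promoter pairs. The *JUNB* pair downstream of the gene, nearest to the start of *HOOK2*, was 1 of the 3 and the pair at least 1.5 times lower. Each of these 3 intervals includes 0.89, the median over all promoter pairs. Their control pileups were 58 to 124 fragments, beside a median of 16 over all control peaks, and intervals are narrower at high pileups. The 30 distal pairs had a median of 1.08, beside 1.24 over all 9804 distal pairs. At least 1.5 times higher were 11 of them and at least 1.5 times lower were 3, beside 32.6% and 6.32% of all distal pairs. The fold of the strongest promoter peak was lower in IFN-γ-treated cells at 9 genes and higher at 1, *FOSL2*, although at *FOSB*, *FOSL2*, *BATF3* and *ATF3* the strongest peaks of the 2 libraries were different sites. Over all shared promoter pairs the ratio of folds had a median of 0.85. The scaled ratio and the ratio of folds lay on opposite sides of 1 at 17 of the 93 pairs, of which 1, at *JUN*, was an own promoter.

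Motif content was counted within 100 bp of each summit on both strands. In the promoter peaks of the 10 genes the AP-1 motif TGANTCA matched in 0 of 18 control peaks (0 to 18.5%) and 1 of 20 IFN-γ peaks, at *FOSL1*, beside 10.1% and 13.6% of all promoter peaks. The 8-letter ETS motif, which contains the GGAA core, was in 2 and 3 of them, beside 13.4% and 15.0%. It lay at the summits of *JUN* and *JUNB* in both libraries, and in IFN-γ-treated cells also in the peak at the upstream start of *ATF3*. The AP-1 match at *FOSL1* and the ETS match at *ATF3* lay 63 bp and 95.5 bp from the IFN-γ summits. The control summits of these pairs were 48 bp and 128 bp away on the other side, so both matches fell outside the control windows. The GGAA core, which is short, was in 16 of 18 and 20 of 20, beside 94.3% and 97.1%. CArG boxes, in 1 of 18 and 2 of 20, were found in 0.456% and 0.623% of all promoter peaks. TGACGTCA had 0 matches at the promoter summits of the members, beside 1.36% and 1.14%, and the interferon-γ activated site TTCNNNGAA also had 0, beside 4.44% and 5.19%. No match says only that these letters are not in the window.

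In the distal peaks the AP-1 motif was more common. It matched in 9 of 36 control peaks (25%, 12.1% to 42.2%) and 13 of 39 IFN-γ peaks (33.3%, 19.1% to 50.2%), beside 27.7% and 29.6% of all distal peaks. Counted over all classes, *FOSB* had the most peaks with the motif, 5 of 17 and 8 of 22, and *JUNB* had 0 in both libraries. All peaks around *JUNB* were promoter peaks, and 10.1% and 13.6% of all promoter peaks had the motif. The counts of single genes mix classes, and the share over all peaks of a like mix was not computed. The 8-letter ETS motif was in 4 of 36 and 6 of 39 distal peaks, beside 12% and 12.3%. Runs of at least 4 GGAA units were in 2 of 36 and 2 of 39, beside 13.2% and 17%, and these were the peaks 48 kb upstream of *FOS* and 77.3 kb upstream of *JUN*. Each of these intervals, at promoters and distal sites, included the value over all peaks of its class, except that of the CArG boxes at promoters in IFN-γ-treated cells (1.23% to 31.7%).

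**Figure D3:**
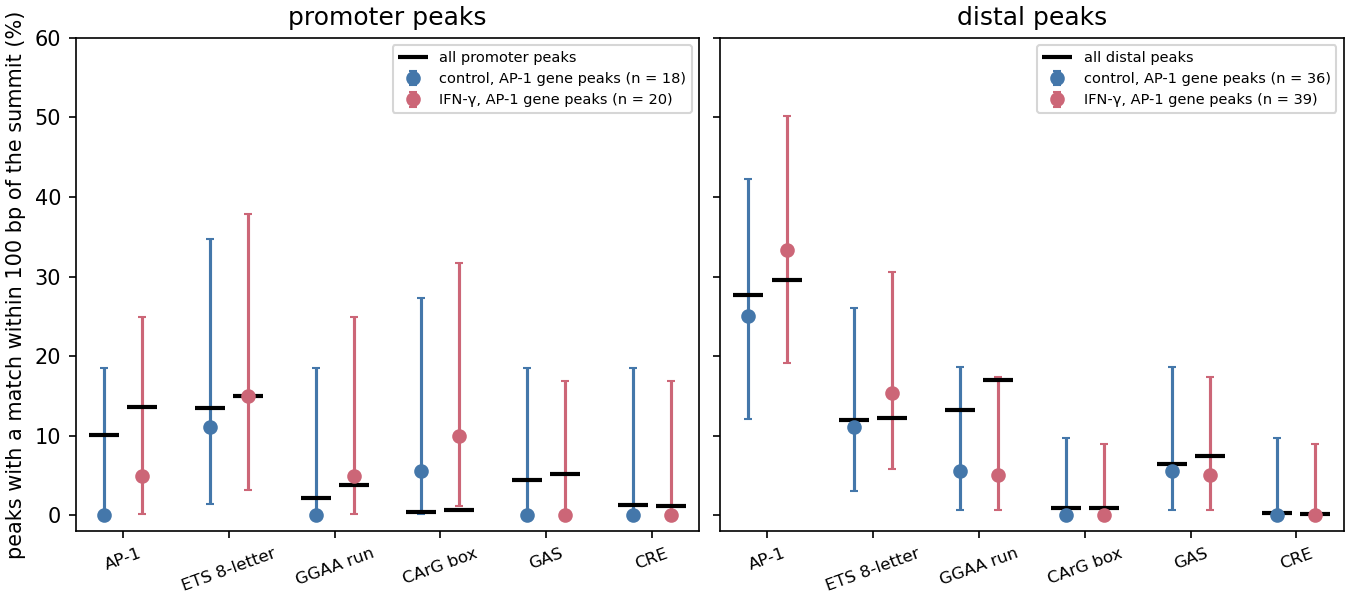
Share of promoter (left) and distal (right) peaks around the AP-1 genes with a motif match within 100 bp of the summit, in the control (blue) and IFN-γ (red) libraries; bars are exact 95% binomial intervals and black marks the share over all peaks of the class in the same library. AP-1 matches were in 0 and 5% of the members' promoter peaks and in 25% and 33.3% of their distal peaks.

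Genes that act with AP-1 were counted in the same way, from lists of partners, regulators and targets. Among all protein-coding genes, 61.9% had a promoter peak in control cells and 59.7% in IFN-γ-treated cells. Of 28 other leucine zipper genes, 27 had a promoter peak in control cells and 25 in IFN-γ-treated cells. Those with the best mean rank over both libraries were *ATF4*, the effector of the integrated stress response, with folds of 83.8 and 154, *ATF1*, a CREB-family factor, with 47.0 and 28.9, and *NFE2L2*, the regulator of the oxidative stress response, with 70.1 and 24.8. *MAF* had none in either library. All 22 kinases, serum response factor and cofactor genes had a promoter peak in control cells and 19 in IFN-γ-treated cells. By mean rank this list was led by *MEF2A*, *ELK4*, which encodes an ETS partner of serum response factor, and *GSK3B*, a kinase that acts on JUN, with control folds of 73.1, 41.0 and 19.3 and IFN-γ folds of 41.7, 41.5 and 27.2.

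All 21 other immediate-early genes had a promoter peak in both libraries, led by mean rank by *IER3* (72.6 and 63.4), *DUSP6*, a phosphatase of ERK (23.9 and 44.6), and *IER2* (37.0 and 33.3). Among 20 AP-1 target genes, 16 had one in both libraries. The share over all protein-coding genes with one in both was 56.0%. *CXCL8*, the gene of interleukin-8, had folds of 13.6 and 28.5, and *KRT18*, a keratin of simple epithelia, 17.1 and 11.6. *IVL*, *MMP9*, *MMP10* and *MMP13* had none. The median fold of the strongest promoter peak was 15.3 and 10.9 over the immediate-early list, 12.1 and 9.40 over the 10 AP-1 genes, and 8.08 and 7.54 over the targets, beside 10.5 and 9.12 over all coding genes with a peak.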

How the data were processed

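Peak lists of the control and IFN-γ Flag ChIP libraries were analysed, with groups taken from the sample labels. According to the methods and the submitters' processing notes, the authors used Cutadapt 1.18 for trimming, Bowtie2 2.3.4.1 for alignment to the GRCh38 build, Picard for duplicates and MACS2 2.1.2 for peaks, at a p-value cutoff of 0.01; use of the input in calling is not given in the sources used here. In the deposited lists, fold enrichment at the summit is a ratio of pileup to background with the same small constant added to both. It is therefore lower than the plain ratio of the 2 values. The lists end at −log10 p of 3.52 (control) and 3.46 (IFN-γ) and −log10 q of 1.30 and 1.32, stricter than that cutoff. The authors also give −log10 p-values and q-values, a display score that was not used, and the offset of the summit.

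MACS2 derives fold and p from a whole-number pileup and a Poisson background, and both were recovered for every peak with a relative error of at most 6.21e-06. Read totals are unknown; IFN-γ pileups were divided by 1.46, the ratio of the lowest backgrounds. Peaks were assigned with GENCODE 44. A peak's class was, in order, the gene's own promoter, its body, another coding promoter, a non-coding promoter or distal. Pairs were mutual best overlaps. Intervals of shares are Clopper-Pearson intervals at 95%, and those of ratios are exact binomial. Nearby summits share sequence, and fragments are not independent molecules. Each step was tested on simulated data, where all 19857 simulated pileups and 700 planted motifs were found. Python 3 with pandas, scipy and pysam was used.

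The members, the other lists and the motifs were chosen with earlier results of these data known. Named genes are the 10 members, the 3 genes of each other list with the best mean rank, those without a peak, and the nearest genes of peaks described. Some genes this rule would name are not reported here. Alternatives were window, start site, q-value, overlap, scaling, ranking and motif window.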

Additional observations from a re-analysis of the deposited data

How the results depend on the processing

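Every AP-1 gene kept a promoter peak in both libraries at a q-value under 0.01 or 1e-05, with lists of equal length, with the MANE Select start only and with the summit required inside the window; with a window of 1 kb 9 genes did, and *BATF* did not. Shared peaks were defined by any overlap. With an overlap of 50% of each peak they made up 63.5% of the control and 59.8% of the IFN-γ peaks of the neighbourhoods, and with summits within 100 bp 60% and 56.6%. These stricter shares were not computed over all peaks, so they cannot be set against the 77.5% and 61.0% for any overlap. The motif shares in the other windows below were not computed over all peaks either. The share of peaks with an AP-1 motif was 17.4% (control) and 21.3% (IFN-γ) within 100 bp of the summit, 7.83% and 13.9% within 50 bp, and 29.6% and 33.6% in whole peaks, which are wider than the window; TGACGTCA went from 0.870% and 0% to 0% and 0% within 50 bp and to 4.35% and 4.1% in whole peaks. The median ratio of the genes' own promoters was 0.79 when scaled by the median of all shared pairs and 0.70 from the deposited folds, and that of distal pairs 1.07 and 1.02. Of the counts, shares and medians, 38 values stayed within their limit (1.5 times for counts, ranks and ratios, the interval for shares) and 10 did not. Of the ranks of single genes, 18 stayed within it and 2 did not. Ranked by fold, the IFN-γ promoter peak of *FOSL1* was at 1889 and that of *JUN* at 634. No paired analysis was possible because there was a single ChIP library of each treatment, and for the same reason no replicate could be left out. Promoter peaks of 9 to 25 fragments, as at *FOS*, *FOSB*, *BATF3* and *ATF3*, gave ratio intervals several times wide. Small differences there could not be told from counting error at this depth.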
